A study of Mus musculus with 9 samples.

Results

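The cytosolic ribosomal proteins are the protein parts of the ribosome that translates mRNA in the cytoplasm. They were taken as all rows of protein_coding biotype whose symbol was Rps or Rpl followed by a number (with or without a closing a, l, x or y), one of the stalk symbols Rplp0 to Rplp2, or Rpsa. The rule gave 81 of the 38215 rows in the table, 32 of the small and 49 of the large ribosomal subunit. RNA had been sequenced after polyadenylated RNA was selected from sorted bone marrow cells of 9 C57BL/6J mice. All 9 mice carried Jak2V617F, an activating change of the kinase Jak2 found in myeloproliferative neoplasms, and all had been treated with tamoxifen. The cells had been sorted as LSK (no lineage markers, with Sca1 and Kit), the fraction in which haematopoietic stem cells and early progenitors are found, and carried GFP together with mCherry. The EV group (mice 1, 2, 3, 4 and 5) had the genotype Jak2V617F alone. The sgZrsr2 group (mice 1, 2, 3 and 5) also carried sgZrsr2 and is described as having lost Zrsr2, a factor of the minor spliceosome. The labels spell out neither EV nor sg, and an age, a Cre driver and the number of guides were not given in the sources used here. The mouse numbers in the titles are taken as separate animals.

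Each ribosome needs a copy of nearly every ribosomal protein, so cells make these proteins in step with each other and with ribosomal RNA. In mammals many of their mRNAs begin with a C and a run of pyrimidines, the terminal oligopyrimidine (TOP) motif, through which mTORC1 and the RNA-binding protein LARP1 set how well they are translated. In the bone marrow, inherited loss of a copy of any of several ribosomal protein genes causes Diamond-Blackfan anaemia, a failure of red cell production. Ribosomal protein genes are also deleted or mutated in myelodysplastic syndromes and leukaemias.

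The bases around the annotated transcription start show the features that these genes have in common. RefSeq start windows (GRCm38.p6) were found for 61 of the 81 genes. The windows below are of 30 bases, with the first transcribed base at position 16. Rpl41, Rps27, Rps2, Rps9 and Rplp0 stood out by level, by fold change or by their copies. Rps18, Rplp2 and Rps6 were chosen for a run at the start. They had the highest levels per kilobase of transcript among the 13 genes with a C and at least 4 more pyrimidines there. Rpl4 and Rps6 were added after their values were seen. Capitals mark the longest run of a C followed by at least 4 more pyrimidines, and shorter runs stay in lower case.
Rpl41, chr10:128549154-128549183, minus strand: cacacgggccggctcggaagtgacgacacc
Rps27, chr3:90213634-90213663, minus strand: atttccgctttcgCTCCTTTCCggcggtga
Rps2, chr17:24720048-24720077, plus strand: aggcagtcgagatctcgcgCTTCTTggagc
Rps9, chr7:3704026-3704055, plus strand: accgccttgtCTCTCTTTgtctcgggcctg
Rps18, chr17:33955651-33955680, minus strand: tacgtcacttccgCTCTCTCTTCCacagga
Rplp0, chr5:115559452-115559481, plus strand: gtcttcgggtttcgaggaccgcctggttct
Rpl4, chr9:64173372-64173401, plus strand: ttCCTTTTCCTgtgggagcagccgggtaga
Rplp2, chr7:141447636-141447665, plus strand: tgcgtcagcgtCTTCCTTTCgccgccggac
Rps6, chr4:86857353-86857382, minus strand: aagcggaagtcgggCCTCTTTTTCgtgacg

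The pyrimidine run lay across the annotated start in Rps27, Rps18, Rplp2, Rps6 and Rps9, began 4 bases after it in Rps2 and 13 bases before it in Rpl4. For Rps18, Rplp2 and Rps6 this place was fixed by the choice of windows. Rpl41 and Rplp0 had no such run in these 30 bases. Over all 73 windows of the 61 genes, 47.9% held a C and at least 6 more pyrimidines within 20 bases of the start, against 18.73% of all 32851 windows in the RefSeq table. A C at the annotated start itself with at least 4 more pyrimidines was found in 17.8% of the ribosomal protein windows, of 13 genes, and in 2.51% of all windows. The letters CCGGAAG, an ETS factor core, were found on either strand in 37.0% of the 300-base windows (250 before and 50 after the start) and in 8.86% of all. The YY1 core AAGATGG was in 15.1% against 6.34%, and TATAAA in 8.2% against 13.62%. These matches describe letters only. The expression data did not separate the genes by tract: the median log2 fold change, sgZrsr2 over EV, was -0.15 for the 33 tested genes with the longer tract near the start and -0.14 for the 25 without it.

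The libraries held 23238264 to 45585531 expected counts. Zrsr2 was lower in each sgZrsr2 library than in each EV library (means of 53.4 CPM with EV and 38.9 CPM with sgZrsr2; CPM are counts scaled to the library size, here with TMM factors). Of 14944 genes tested with edgeR's quasi-likelihood test, 0 passed a Benjamini-Hochberg adjusted p of 0.05 and 1024 (6.85%) had an unadjusted p under 0.05. The defining LSK genes were present: Kit was at 247 to 632 CPM, Ly6a (Sca1) at 14.8 to 49.3 CPM and Cd34 at 544 to 705 CPM.

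Of the 81 genes, 78 had over 100 counts in each library. Per kilobase of transcript, the 32 small subunit genes had a median level of 1235 CPM per kb over the 9 libraries, and 46 large subunit genes, without the paralogs Rpl3l, Rpl10l and Rpl39l, a median of 978.7. In the small subunit, Rps2, which sits at the mRNA entry channel, was highest at 2421 CPM per kb, followed by Rps9 (2108) and Rps18 (2032), proteins of the subunit's body and head. In the large subunit, the stalk proteins Rplp1 (2584) and Rplp0 (2173), which recruit elongation factors, and Rpl32 (2129) were highest. Rps27l, a paralog of Rps27, was lowest of the small subunit genes at 108.6 CPM per kb, and Rpl5, which carries 5S rRNA into the ribosome, was lowest of the 46 large subunit genes at 381.7. The level of Rpl5 is uncertain, since more counts fell on its copies than on the gene itself. Its transcript was taken as 2045 bases, and per kilobase of coding sequence it was at 873.2 CPM, above Rpl31 (792.7) and Rpl27 (812.7). The order at the top also leaves copies out. Near-identical copies held 41.8% of the counts on gene and copies together for Rps12 (1591 CPM per kb) and 30.6% for Rpl13 (1710), against 0% for Rps9 and 0.37% for Rpl32. The median coefficient of variation over the 9 libraries was 14.7% for small and 14.5% for large subunit genes.

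The genes together took between 5.95% and 7.78% of the counts. In the EV libraries of mice 1 to 5 the share was 7.26%, 6.99%, 7.18%, 7.78% and 6.28%. In the sgZrsr2 libraries of mice 1, 2, 3 and 5 it was 7.38%, 7.16%, 5.95% and 6.06%. The groups overlapped: sgZrsr2 mice 1 and 2 lay among the higher EV libraries, and sgZrsr2 mice 3 and 5 lay below all EV libraries. The mean share with sgZrsr2 (6.64% ± 0.74, SD, n = 4) was 93.5% of that with EV (7.10% ± 0.54, SD, n = 5), a difference smaller than the spread within either group. The ratio of large to small subunit counts stayed between 1.31 and 1.35, so the libraries differed in the sum far more than in the balance of the subunits. Mitochondrial genes took 2.27% to 4.07%, with the lowest shares in the same 3 libraries as the ribosomal protein genes, EV mouse 5 and sgZrsr2 mice 3 and 5.

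**Figure D1:**
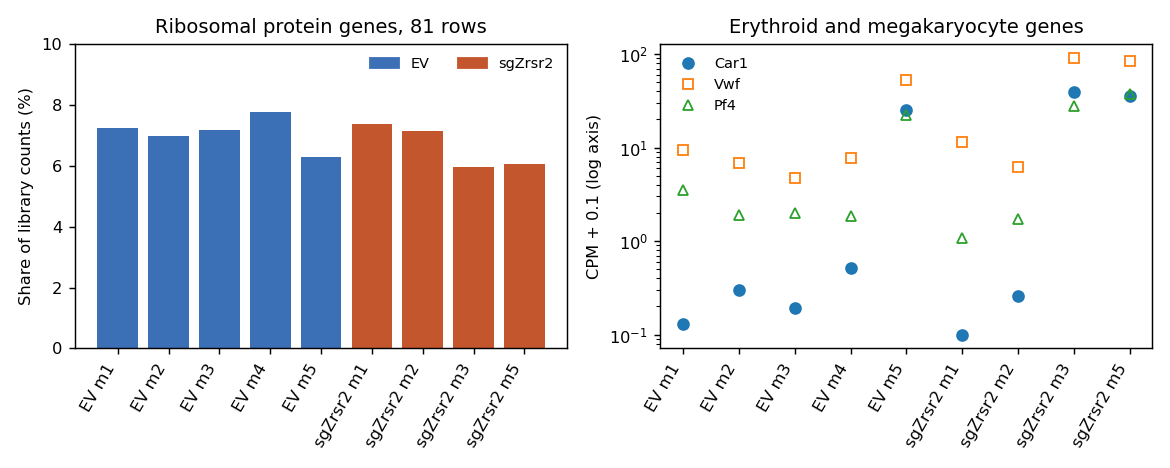
Left, the share of each library's counts on the 81 ribosomal protein genes (bars, percent, axis from 0; m is the mouse number), for 5 EV and 4 sgZrsr2 libraries. Right, the levels of Car1, Vwf and Pf4 in the same libraries on a log axis of CPM plus 0.1: EV mouse 5, sgZrsr2 mouse 3 and sgZrsr2 mouse 5 are the libraries with the lowest shares, 5.95% to 6.28%, and with the highest levels of the 3 genes.

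The genes moved together across libraries, and the largest split did not follow the groups. Relative to each gene's own mean over the 9 libraries, in TMM-scaled CPM, the median log2 deviation of 78 genes was 0.06, 0.01, 0.23, 0.22 and -0.20 in EV mice 1 to 5. It was 0.15, 0.11, -0.31 and -0.27 in sgZrsr2 mice 1, 2, 3 and 5. In EV mice 3 and 4 all 78 genes were above their own mean, and in EV mouse 5 and sgZrsr2 mice 3 and 5 none was. Scaled by library totals alone, the medians were 0.09, 0.03, 0.07, 0.20 and -0.14 with EV and 0.10, 0.06, -0.21 and -0.20 with sgZrsr2. The same 3 libraries were below 0 under both scalings, with 2, 2 and 0 genes above their own mean under library totals. The place of EV mouse 3 rested on its TMM factor of 0.894, the lowest of the 9: it held the highest value of 39 of the 78 genes with TMM factors and of 0 with library totals. EV mouse 4 held the highest value of 30 and 54 genes under these scalings, sgZrsr2 mouse 3 the lowest of 53 and 40, and sgZrsr2 mouse 5 the lowest of 21 and 29.

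**Figure D2:**
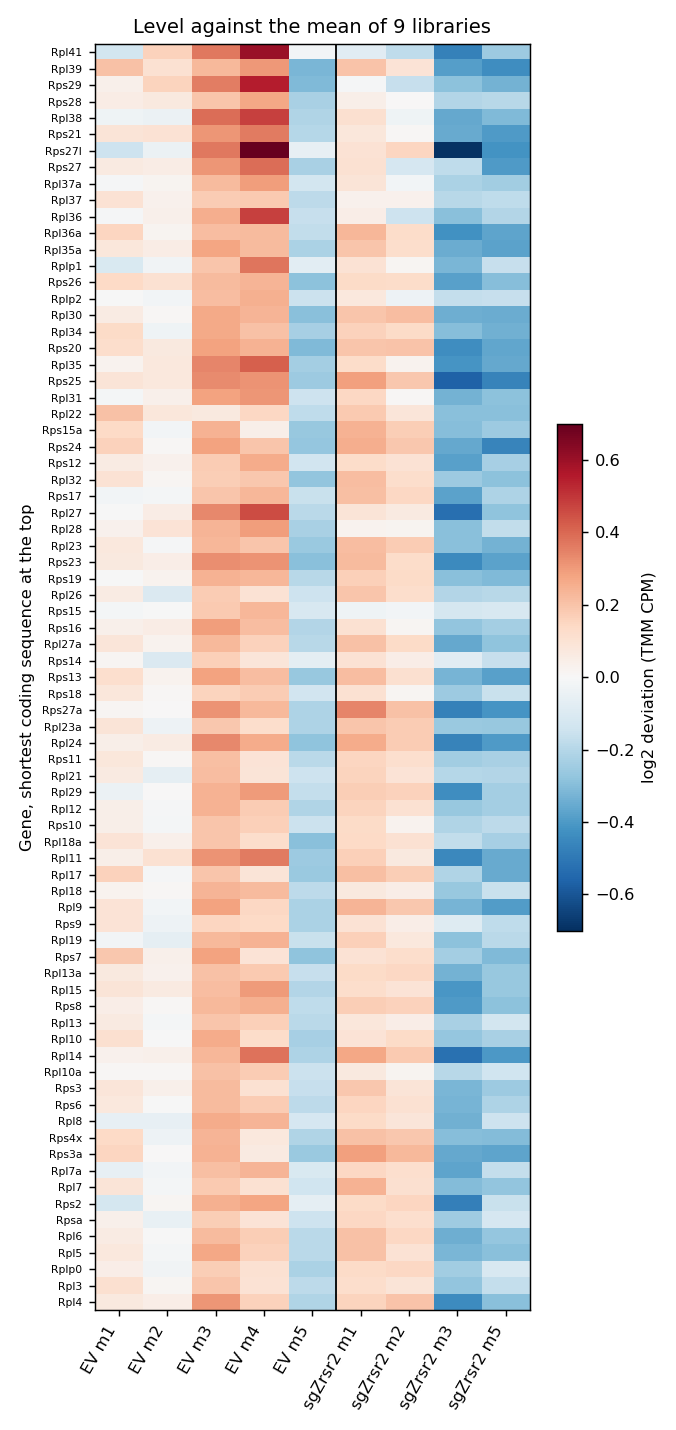
Log2 deviation of ribosomal protein genes (rows, shortest coding sequence at the top) from its mean over the 9 libraries (columns; m is the mouse number), in TMM-scaled CPM, red above and blue below the mean. The columns of EV mouse 5, sgZrsr2 mouse 3 and sgZrsr2 mouse 5 are blue throughout, with medians of -0.20, -0.31 and -0.27.

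EV mouse 5, sgZrsr2 mouse 3 and sgZrsr2 mouse 5 were also the 3 libraries in which Car1, an early erythroid carbonic anhydrase, was above 1 CPM (25.4, 39.3 and 35.5 CPM, against at most 0.42 CPM in the other 6). Of 78 ribosomal protein genes, 73 were lower in each of these 3 libraries than in each of the other 6, and 0 were higher in all 3. Over all genes tested, 9.73% were lower in all 3 and 7.79% were higher. With library totals in place of TMM factors, 67 of the 78 were lower in all 3 and 0 higher, against 6.2% and 11.9% of all genes tested. The 5 exceptions with TMM factors, named after their values were seen, were Rpl41, Rplp1, Rps2, Rps14 and Rps27l. Of 12 erythroid marker genes, 9 were higher in each of the 3 libraries than in each of the other 6, among them Car1, which set the split (summed level 505 to 740 CPM against 432 to 625), and so were 6 of 10 megakaryocyte marker genes (453 to 673 against 264 to 522). Vwf (53.2, 91.1 and 85.3 CPM) and Pf4 (22.0, 27.9 and 37.4 CPM) were among the latter, while Gp6 was at most 0.03 CPM and Ppbp at most 1.73 CPM in any library. None of 11 neutrophil and none of 12 lymphoid markers separated the libraries in this way. The neutrophil genes S100a8, S100a9, Ngp, Camp and Ltf were highest in EV mouse 5 and sgZrsr2 mouse 3, but not in sgZrsr2 mouse 5. Ngp, for example, was at 43.1, 53.2 and 5.70 CPM in these 3 libraries, and at 17.2 CPM in EV mouse 3. The other neutrophil markers had their highest value in another library. In bulk RNA, more cells of a type and more RNA per cell cannot be told apart, and the part of these cells in the ribosomal protein levels was not tested.

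Rpl32, a large subunit protein, shows the common pattern; values are given in mouse order, 1 to 5 for EV and 1, 2, 3 and 5 for sgZrsr2, here and in what follows. Its level was 1169, 1103, 1228, 1243 and 899.6 CPM in the EV libraries, and 1264, 1189, 914.4 and 895.2 CPM in the sgZrsr2 libraries. The 3 libraries named above lay near 900 CPM and the other 6 above 1100, with EV and sgZrsr2 libraries on both sides. Rps3a, which binds near the mRNA exit, was at 1883, 1695, 2008, 1771 and 1417 CPM in the EV libraries and at 2069, 1986, 1323 and 1312 CPM in the sgZrsr2 libraries. Here the highest and the lowest value of all 9 libraries both came from the sgZrsr2 group. The ranges of the groups overlapped for each of the 79 ribosomal protein genes tested.

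Between sgZrsr2 and EV, no ribosomal protein gene passed the adjusted threshold (0 of 79 tested, against 0% of all genes; edgeR, smallest adjusted p 0.714). The log2 fold change was below 0 for 78 of the 79, against 51.5% of all genes tested, with a median of -0.13 against -0.01. In the small subunit 32 of 32 were below 0 (median -0.14) and in the large subunit 46 of 47 (median -0.13). The uniform sign is not that of 79 separate results, since the genes share the libraries described above. Without EV mouse 5 and sgZrsr2 mice 3 and 5 the median was 0.02 and 33 of 80 genes tested were below 0, and with limma-voom and sample quality weights it was 0.0068, with 35 of 79 below 0. Beside the group difference, the mean of each of 10 megakaryocyte markers was higher with sgZrsr2, and their summed level did not overlap between groups (264 to 470 CPM with EV, 485 to 673 CPM with sgZrsr2). The means of 11 of 12 erythroid markers were also higher with sgZrsr2, with sums that overlapped (432 to 625 against 435 to 740 CPM). Lymphoid markers went the other way, with 2 of 12 means higher with sgZrsr2 and overlapping sums of 107 to 355 CPM with EV and 70.2 to 257 CPM with sgZrsr2; the progenitor gene Dntt averaged 186 and 100.7 CPM. Of the LSK markers 7 of 10 and of the neutrophil markers 7 of 11 had higher means with sgZrsr2. The part of these genes' cells in the group difference was not tested.

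At an unadjusted p under 0.05 there were 2 ribosomal protein genes of 79, Rpl41 and Rps29, both lower with sgZrsr2. Of all genes tested, 6.85% had such a p, 2.98% lower and 3.87% higher with sgZrsr2, so the ribosomal protein count is near the background. The groups did not overlap for 0 of the 79, against 3.06% of all genes tested and 1.32% in the lower direction.

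Rpl41 (ENSMUSG00000093674; chromosome 10, 128548114 to 128549305, minus strand) encodes a very short, basic peptide of the large subunit. It was at 762, 929, 1076, 1263 and 820 CPM in the EV libraries. It was at 789, 735, 600 and 697 CPM in the sgZrsr2 libraries. The overlap came from EV mouse 1, which lay below sgZrsr2 mouse 1; the other 4 EV libraries were above all sgZrsr2 libraries. The means were 970 ± 203 and 705 ± 79.5 CPM (SD, n = 5 and 4), with a log2 fold change of -0.46 (SE 0.16), with an edgeR p of 0.0152 and an adjusted p of 0.714. The two-sided exact permutation p was 0.0317.

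Rps29 (ENSMUSG00000034892; chromosome 12, 69157722 to 69159186, minus strand) is a zinc-binding protein of the small subunit's head and a Diamond-Blackfan anaemia gene. It was at 260, 282, 326, 372 and 205 CPM in the EV libraries. It was at 252, 227, 208 and 202 CPM in the sgZrsr2 libraries. In 4 EV libraries the level was above every sgZrsr2 library, and EV mouse 5 was level with sgZrsr2 mice 3 and 5. The log2 fold change of -0.38 (SE 0.16) had an edgeR p of 0.0424, an adjusted p of 0.714 and an exact permutation p of 0.0794. Neither Rpl41 nor Rps29 had an unadjusted p under 0.05 with the mouse number as a block, or without EV mouse 5 and sgZrsr2 mice 3 and 5 together. Rps29 lost it also when EV mouse 2, 3 or 4 or sgZrsr2 mouse 2, 3 or 5 was left out by itself, and Rpl41 did not. Under limma-voom with sample quality weights the unadjusted p was 0.0906 for Rps29 and 0.0422 for Rpl41.

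**Figure D3:**
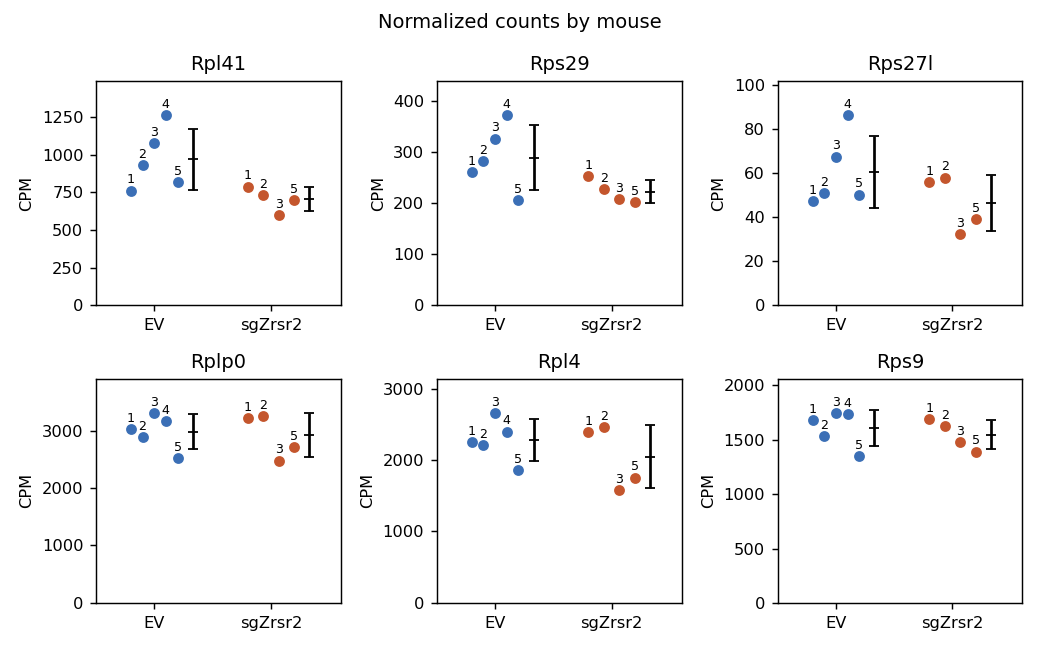
Levels of 6 ribosomal protein genes in TMM-scaled CPM (vertical axes from 0). Each point is a library labelled with its mouse number, and the bars give the mean ± SD of 5 EV and 4 sgZrsr2 libraries. Rpl41 and Rps29 show the lower sgZrsr2 means (705 and 222 CPM), and in all 6 panels the groups overlap.

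The stalk of the large subunit, built of Rplp0, Rplp1, Rplp2 and Rpl12, recruits the GTPases of translation. All 4 had log2 fold changes below 0 (median -0.12). Rplp0, the base of the stalk, was at 3030, 2880, 3306, 3161 and 2515 CPM in the EV libraries and at 3221, 3250, 2475 and 2714 CPM in the sgZrsr2 libraries. Its means lay closest together of the 4, at 2978 ± 303 and 2915 ± 383 CPM (log2 fold change -0.03, SE 0.12). Rplp1 (1355 ± 199 against 1207 ± 155 CPM) and Rplp2 (684 ± 79.8 against 623 ± 49.9 CPM), the acidic proteins that form its arms, had log2 fold changes of -0.17 (SE 0.14) and -0.13 (SE 0.11). Rpl26, which lies near the peptide exit tunnel, was as close as Rplp0, at 701 ± 65.8 and 686 ± 99.3 CPM.

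Some ribosomal proteins carry a signal of ribosome stress: Rpl5 and Rpl11, bound to 5S rRNA, and others can bind Mdm2 and so stabilise p53. All 8 genes of this list were below 0 (median log2 fold change -0.14) and 0 had an unadjusted p under 0.05. Rpl11 was at 670, 702, 811, 838 and 546 CPM in the EV libraries and 730, 684, 477 and 509 CPM in the sgZrsr2 libraries. Both groups contained high and low libraries, and the log2 fold change was -0.25 (SE 0.17; exact permutation p = 0.206). For Rps27 it was -0.27 (SE 0.15; exact permutation p = 0.159), a value that rests on reads shared with its copies.

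Of 17 genes mutated in Diamond-Blackfan anaemia, all were below 0 with a median log2 fold change of -0.16, and Rps29 alone had an unadjusted p under 0.05. Rps19, the gene most often mutated in this disease, averaged 764 ± 94.7 and 700.04 ± 126 CPM and had a log2 fold change of -0.13 (SE 0.14); it was named after its value was seen. Rpl27 was at 364 ± 66.4 and 297 ± 58.9 CPM (log2 fold change -0.29, SE 0.17; exact permutation p = 0.190). The 6 genes lost or mutated in blood malignancies (Rpl5, Rpl10, Rpl11, Rpl22, Rps14 and Rps15) had a median of -0.13, and none had an unadjusted p under 0.05. Rps14, lost in the myelodysplastic syndrome with a deletion on the long arm of a chromosome, was at 1101, 1018, 1227, 1157 and 1040 CPM in the EV libraries. In the sgZrsr2 libraries the values were 1172, 1127, 1032 and 975 CPM, and the log2 fold change was -0.04 (SE 0.10). Rps15, a protein of the small subunit's head that is mutated in chronic lymphocytic leukaemia, had a tight sgZrsr2 group, at 679 ± 25.4 CPM against 745 ± 75.1 CPM with EV (log2 fold change -0.13, SE 0.10).

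The size of the group difference varied with coding length. The 26 ribosomal protein genes with a coding sequence of up to 400 bases had a median log2 fold change of -0.18, from -0.46 for Rpl41 (78 coding bases) to -0.05. The next 38 genes, of up to 700 bases, had a median of -0.12 and the 14 longer genes of -0.11. Across the 78 genes Spearman's rho between coding length and log2 fold change was 0.576; the points are genes of the same 9 libraries and no p is given. Other protein-coding genes followed the same order, with medians of -0.12 over 781 genes, -0.08 over 1730 and 0.02 over 10140. Among those other genes whose mean level reached 100 CPM, 71.8% of the shortest class, 71.1% of the middle class and 51.7% of the longest had log2 fold changes below 0. The length order differed between single libraries. In EV mouse 4, which had the widest spread, the median deviation of the ribosomal protein genes was 0.28, 0.18 and 0.13 from the short to the long class. In EV mouse 3 it was 0.26, 0.23 and 0.22, and in EV mouse 1 it was flat (0.060, 0.058 and 0.072). In sgZrsr2 mice 1 and 2 the short class was lowest (0.13, 0.16 and 0.15, and 0.057, 0.11 and 0.12). In sgZrsr2 mouse 3 the medians were -0.35, -0.27 and -0.32, without the order of EV mouse 4. RNA integrity is not given in the sources used here, and its part in this pattern was not tested.

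**Figure D4:**
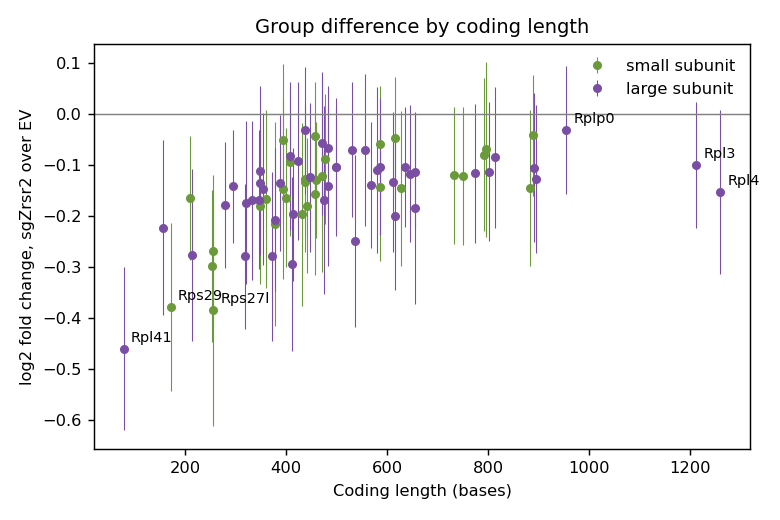
Log2 fold change, sgZrsr2 over EV, of 78 ribosomal protein genes (points; bars are ± 1 SE from edgeR's quasi-likelihood fit) against coding length in bases, coloured by subunit. All 78 points lie below 0, from -0.46 for Rpl41 to -0.03 for Rplp0, and the genes with the shortest coding sequences reach the lowest values.

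Some ribosomal proteins have a paralog that can take their place in the ribosome of particular tissues. Rps27 and Rps27l are such a pair. Their coding sequences (255 bases each, GENCODE M21 on GRCm38) differed at 61 bases, an identity of 76.1%, while Gm9846, a copy of Rps27 on chromosome 9, was identical to Rps27 at each base. The first 90 coding bases are shown as an example of where the sequences match or differ. Capitals in Rps27l mark its 24 differences from Rps27 in this stretch.
Rps27, chr3:90212725-90213615, minus strand: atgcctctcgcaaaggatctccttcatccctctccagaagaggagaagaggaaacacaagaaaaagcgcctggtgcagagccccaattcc
Gm9846, chr9:114982399-114982739, minus strand: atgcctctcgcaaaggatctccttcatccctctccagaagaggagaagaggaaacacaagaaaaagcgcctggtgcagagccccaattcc
Rps27l, chr9:66946086-66949516, plus strand: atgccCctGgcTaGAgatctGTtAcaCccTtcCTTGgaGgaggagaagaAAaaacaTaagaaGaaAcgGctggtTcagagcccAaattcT
The coordinates are those of the whole gene. RSEM placed a mean of 84.1 CPM on Gm9846 and 42.8 CPM on Rps27, so most of the counts of Rps27 sequence were not on the Rps27 row. The Rps27 row held 44.0, 43.8, 52.3, 55.3 and 36.0 CPM in the EV libraries and 45.4, 38.9, 37.4 and 32.1 CPM in the sgZrsr2 libraries. These 9 values give the part that RSEM assigned to this row and cannot be read as the level of the gene.

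Rps27l, a p53 target whose protein also enters the small subunit, had whole counts in 8 of the 9 libraries and no near-identical copy in the table. It was at 47.3, 50.9, 67.6, 86.3 and 50.3 CPM in the EV libraries and at 56.0, 58.0, 32.3 and 39.1 CPM in the sgZrsr2 libraries. It had the highest coefficient of variation of the 78 genes with over 100 counts in each library (29.2%), from EV mouse 4 at the top to sgZrsr2 mouse 3 at the bottom, and the groups overlapped. The means were 60.5 ± 16.5 and 46.4 ± 12.6 CPM, and the log2 fold change was -0.38 (SE 0.23; exact permutation p = 0.175).

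The paralogs known from muscle and testis were at or near 0. Rpl3l, the striated muscle paralog of Rpl3, was the only one of the 79 genes above 0, with a log2 fold change of 0.56 (SE 0.67) on 12 to 52 counts per library. It was at 0.43, 0.40, 1.62, 0.27 and 0.41 CPM in the EV libraries and at 0.80, 2.08, 0.46 and 0.36 CPM in the sgZrsr2 libraries. A single library in each group, EV mouse 3 and sgZrsr2 mouse 2, set the means, and without sgZrsr2 mouse 2 the log2 fold change was -0.22. Rpl3 itself was at 1760 ± 170 and 1642 ± 219 CPM.

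Rpl10l, the testis paralog of the X-linked Rpl10, had 0 counts in all 9 libraries, where the limit of 3 counts corresponds to 0.0658 to 0.129 CPM. Rpl39l, the testis paralog of the X-linked Rpl39, did not pass the filter on low counts. It was at 0.46, 0.44, 0, 0.51 and 0.03 CPM in the EV libraries and at 0, 0, 0 and 0.03 CPM in the sgZrsr2 libraries. Counts were seen in 3 EV libraries above the level of a few reads, at most 23 in a library, and the groups overlapped (exact permutation p = 0.0794). Rpl39 was at 404 ± 62.8 and 346 ± 77.3 CPM, and Rpl10 at 1002 ± 124 and 924 ± 134 CPM.

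Of the other pairs, the partners outside the naming rule included the gene with the smallest p of any list here. Rpl7l1, a relative of Rpl7 that acts in the assembly of the large subunit, was at 142, 144, 138, 177 and 147 CPM in the EV libraries. It was at 94.4, 101.1, 105 and 124 CPM in the sgZrsr2 libraries. Each sgZrsr2 library was lower than each EV library (150 ± 15.8 and 106 ± 12.5 CPM; exact permutation p = 0.0159, the smallest that 5 against 4 libraries can give). The log2 fold change was -0.50 (SE 0.12), and the gene did not pass over all genes (edgeR adjusted p = 0.714). Without EV mouse 5 and sgZrsr2 mice 3 and 5 it was -0.61, about as large as in all libraries. Rpl7 had a log2 fold change of -0.08 (SE 0.14).

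The X-linked genes Rpl10, Rpl36a, Rpl39 and Rps4x had a median log2 fold change of -0.15. Rps4x, at 1742 ± 202 and 1648 ± 326 CPM, stood against 11.1 ± 2.57 and 7.46 ± 1.82 CPM for its relative on chromosome 6, which the table names Rps4y2 (log2 fold change -0.58; exact permutation p = 0.0635). Rpl36a was at 451 ± 50.2 and 400 ± 92.6 CPM, and its autosomal relative Rpl36al at 247 ± 37.3 and 204 ± 30.4 CPM. Rpl22, which acts in T cell development and is deleted in leukaemias, was at 427 ± 41.3 and 389 ± 67.3 CPM (log2 fold change -0.14, SE 0.13). Its paralog Rpl22l1 had a log2 fold change of -0.19 (SE 0.26), from means of 92.8 and 81.6 CPM, which was 0.19 without EV mouse 5 and sgZrsr2 mice 3 and 5.

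Whole against fractional counts showed how much of these values rests on shared sequence. RSEM divides a read that matches several genes between them, so a count that is not whole (by more than 0.001) marks a gene with shared reads. Of the 79 tested ribosomal protein genes, 71 (89.9%) had a fractional count in at least 1 library, against 33.2% of all genes tested. In all 9 libraries 64 (81%) did, against 18.6%. The 8 with whole counts in all 9 libraries included Rpl4 and Rpl8 of the large and Rps3 and Rps9 of the small subunit.

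Copies of the coding sequence elsewhere in the table followed the fractional counts. A near-identical copy (at least 95% identity over at least 80% of the coding sequence) was found for 70 of the 81 genes, 391 copies in all. Of these, 330 had a pseudogene biotype and 61 had the biotype protein_coding. None of the 8 genes with whole counts had a copy. The median share of gene-plus-copy counts on the copies was 0% for those 8, 3.09% for the 7 genes with fractional counts in some libraries and 28.7% for the 64 with fractional counts in all. For 4 genes the copies held the greater part: Rpl31 (71.5%, 11 copies), Rps27 (65.9%, 2 copies), Rpl5 (56.5%, 3 copies) and Rpl27 (52.9%, 5 copies). For Rpl31 the row of its pseudogene Rpl31-ps8, identical over the coding sequence, was at 761 CPM against 300 CPM for Rpl31.

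**Figure D5:**
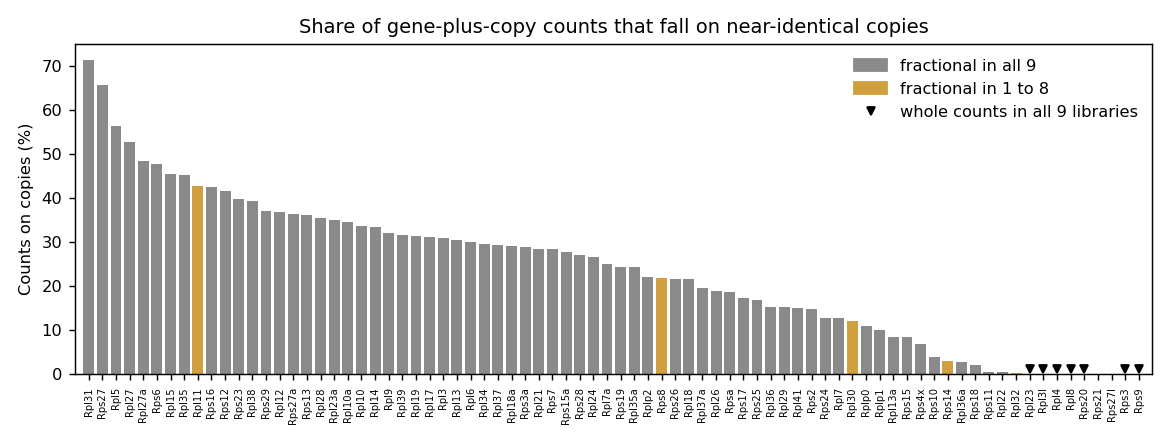
Share of the counts of gene and near-identical copies together that RSEM placed on the copies (bars, percent), for ribosomal protein genes ordered by that share; colour shows in how many of the 9 libraries the gene's own count was fractional. Rpl31 (71.5%) is highest, and the genes with whole counts in all libraries, marked by triangles, are at 0.

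The 7 well expressed genes with whole counts had a median log2 fold change of -0.12, with 7 of 7 below 0. Rpl4, at the protein exit tunnel and free of shared reads, was at 2248, 2215, 2660, 2399 and 1857 CPM in the EV libraries and at 2386, 2462, 1582 and 1754 CPM in the sgZrsr2 libraries. It showed the same 3 low libraries as the genes with shared reads. Rps9 was at 1682, 1537, 1748, 1737 and 1352 CPM in the EV libraries and at 1689, 1626, 1482 and 1392 CPM in the sgZrsr2 libraries (log2 fold change -0.06, SE 0.11). With the counts of all near-identical copies, the share lay between 7.76% and 10.1%, against 5.95% to 7.78% without them, and the sgZrsr2 mean came to 94.1% of the EV mean, against 93.5%. One row needs a separate caution: the Rpl24 row (chromosome 16, 55966275 to 56008913) spans both Rpl24 and Zbtb11 in GENCODE M21, and the table has no Zbtb11 row, so its 537 ± 85.8 and 478 ± 124 CPM may count both.

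The machinery that makes and uses ribosomes was read from lists outside the rule. Of 44 ribosome biogenesis factors, 44 had log2 fold changes below 0, with a median of -0.29 (51.5% of all genes tested were below 0). In this list 3 genes had an unadjusted p under 0.05, all lower, beside 6.85% of all genes tested in either direction and 2.98% lower, and 0 passed the adjusted threshold. Bop1, needed to process large subunit rRNA, was at 96.9, 105, 149, 175 and 124 CPM in the EV libraries and 84.5, 88.7, 79.96 and 114 CPM in the sgZrsr2 libraries. Its log2 fold change was -0.50 (SE 0.19; exact permutation p = 0.0635), and sgZrsr2 mouse 5 lay among the EV values. Gar1, of the small nucleolar particles that modify rRNA, was at 50.5, 52.7, 68.5, 78.6 and 51.1 CPM in the EV libraries and 44.1, 48.6, 37.2 and 49.4 CPM in the sgZrsr2 libraries. Here the groups did not overlap, by a margin of about 1 CPM (log2 fold change -0.43, SE 0.16; exact permutation p = 0.0159).

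Of 20 RNA polymerase I genes and factors found, 16 were below 0 and 4 above (median -0.14). Here too 3 were lower at an unadjusted p under 0.05, beside 6.85% of all genes tested in either direction and 2.98% lower, and 0 passed the adjusted threshold. Polr1a, the largest subunit of the enzyme that transcribes rRNA genes, was at 144 ± 19.3 and 110 ± 11.99 CPM (log2 fold change -0.38, SE 0.12; exact permutation p = 0.0317). Polr1e was at 35.9 ± 4.27 and 28.4 ± 1.83 CPM (log2 fold change -0.33, SE 0.12; exact permutation p = 0.0317). Of 18 translation factors and other genes with TOP mRNAs, 17 were below 0 (median -0.10) and 0 had an unadjusted p under 0.05; the elongation factor Eef1d (-0.25, SE 0.17) and the initiation factor Eif2s3x (-0.27, SE 0.16) had the smallest p. Among 10 further ribosomal protein genes named otherwise, of which Rps3a is in the rule, all were below 0 (median -0.13). They ranged from -0.50 for Rpl7l1 to -0.00057 for Rack1, a scaffold on the small subunit that the table lists as Gnb2l1. All these lists share the 9 libraries, and none was tested as a list.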

How the data were processed

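RNA was measured in LSK cells of 5 EV and 4 sgZrsr2 mice. The deposited values are RSEM expected counts per gene, made by the authors and not normalized. The submitters' processing notes name cutadapt 1.11, RSEM 1.2.30 and GRCm38. Aligner, annotation and strandedness are not given in the sources used here, so antisense and overlapping genes are uncertain. Per the labels' protocols, little total RNA was used and libraries were amplified by PCR.

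Expected counts were rounded, filtered with filterByExpr (minimum count 10, minimum total 15; 14944 genes and 99.93% of counts kept) and scaled by TMM factors of 0.894 to 1.07. Groups were compared with edgeR 4.0.16 (glmQLFit and glmQLFTest, R 4.3.3), and p-values were adjusted by Benjamini-Hochberg over the 14944 genes. The SE is the size of the log2 fold change divided by the square root of F, and the biological coefficient of variation was 0.322. Single genes were also compared by two-sided exact permutation over 126 splits (smallest p 0.0159). Shares were taken from unrounded counts. Copies were found with blastn 2.17.0 against GENCODE M21 transcripts, and lengths are from M21. Depth limits genes of few counts, and counting error does not cover variation between mice.

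Named were the 3 highest levels per subunit, genes at an unadjusted p under 0.05, the 3 largest fold changes each way, genes that did not pass the filter, the 4 with most counts on copies, paralogs, and the 2 smallest p of each list. The genes, the lists and the tests were chosen with earlier results of these data known. Fits were tested on simulated counts. Alternatives were other scaling, filters, DESeq2 1.42.0, limma 3.58.1 voom with quality weights, unrounded counts, the mouse number as a block and leaving out libraries. Added after seeing the data were leaving out EV mouse 5 with sgZrsr2 mice 3 and 5, averaging sgZrsr2 mice 1 and 2, and adding copies. Of all pairs, sgZrsr2 mice 1 and 2 were the most alike, with a median coefficient of variation of 4.19% over genes at 100 CPM or more. The next pair was EV mice 1 and 2 (5.58%). Then came EV mouse 5 with sgZrsr2 mouse 5 (6.82%), a pair across the groups. Other sgZrsr2 pairs were at 12.9% to 25.4%. Whether sgZrsr2 mice 1 and 2 were independent samples was not tested. Protein sequences were not used here. 1 gene of the rule enters the counts and sums but is not reported here.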

Additional observations from a re-analysis of the deposited data

Results flagged for a closer look

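The sets examined were the 4 or 5 libraries of a group for each named gene, and for the share of counts, subunit ratio and mean level of the ribosomal protein genes. Of 80 such sets, 5 held a library far from the rest of its group, where chance gives about 4. Rpl3l was at 1.62 CPM in EV mouse 3, against 0.266 to 0.432 CPM in the other EV libraries. Rpl39l was at 0.0278 CPM in sgZrsr2 mouse 5 and at 0 in the other sgZrsr2 libraries. Rpl7l1 was at 177 CPM in EV mouse 4, against 138 to 147 CPM. Polr1a was at 128 CPM in sgZrsr2 mouse 5, against 104 to 105 CPM, and Polr1e at 31.2 CPM in the same library, against 27.3 to 27.8 CPM.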

How the results depend on the processing

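The count of all genes past the adjusted threshold was 0 in edgeR, with 1024 at an unadjusted p under 0.05. DESeq2 called 16 genes, none of them a ribosomal protein gene, and edgeR with sgZrsr2 mice 1 and 2 averaged called 1. The count of 2 ribosomal protein genes at an unadjusted p under 0.05 was 1 without EV mouse 5 and sgZrsr2 mice 3 and 5, where the gene was Rpl39l and neither Rpl41 nor Rps29. It was 4 with sgZrsr2 mice 1 and 2 averaged (Rpl39l, Rpl41, Rps21 and Rps29). Rpl39l, near 0 in all libraries, passed the filter on low counts in these 2 fits and without sgZrsr2 mouse 1, 2, 3 or 5, and not in the fit of all 9 libraries. Leaving out each library gave 1 (without EV mouse 2, 3 or 4) to 6 (without EV mouse 5 or sgZrsr2 mouse 1). Under limma-voom with quality weights the count was again 2, but the genes were Rpl41, lower, and Rpl3l, higher with sgZrsr2. For Rpl3l the log2 fold change in that fit was 1.115 (unadjusted limma-voom p 0.048). Except for mouse 5, the mouse numbers did not pair the libraries. Same-numbered deviations correlated at -0.227, -0.0904, -0.404 and 0.369 for mice 1, 2, 3 and 5, and only mouse 5 correlated best with its own number. With the mouse number as a replicate block, 0 ribosomal protein genes and 341 of all genes had an unadjusted p under 0.05, and the median was -0.10.

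The median log2 fold change of -0.13 became 0.0068 under limma-voom with quality weights and 0.017 without EV mouse 5 and sgZrsr2 mice 3 and 5; the cause was not tested. With each library left out in turn it ran from -0.22 (without sgZrsr2 mouse 1) to -0.056 (without sgZrsr2 mouse 3), and it was -0.10 with library totals, where 46.9% of all genes were below 0. Averaging sgZrsr2 mice 1 and 2 gave a median of -0.21.

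Under voom, log2 fold changes turned above 0 for Rps2 (0.040), Rps9 (0.026), Rplp1 (0.0022), Rplp0 (0.082), Rpl32 (0.037), Rpl26 (0.11), Rpl5 (0.025), Rps3a (0.077), Rpl10 (0.0085), Rpl3 (0.00024), Rpl7 (0.042), Rps4x (0.065) and Eef1d (0.045). Without the 3 libraries they did for Rps2 (0.036), Rplp0 (0.072), Rpl32 (0.056), Rpl26 (0.11), Rpl5 (0.035), Rps3a (0.15), Rpl36a (0.034), Rpl22 (0.016), Rpl3 (0.0084), Rpl22l1 (0.19), Rpl7 (0.094) and Rps4x (0.098). With each library left out in turn, Rplp0 ran from -0.094 to 0.040, Rpl26 from -0.11 to 0.028, Rps3a from -0.20 to 0.030, Rps4x from -0.17 to 0.00090 and Rpl3l from -0.22 to 1.27.

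The share with sgZrsr2 was 90.03% to 96.8% of that with EV when each library was left out and 99.6% without the 3 libraries. Fractional counts were found in 69 genes at a tolerance of 0.1. Differences of the size seen here, mostly under 0.3 on the log2 scale, were close to their standard errors.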
